A study of Homo sapiens with 372 samples.

Results

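A group of 9 genes of the antioxidant response was followed through drug treatment, namely NQO1, HMOX1, TXNRD1, TXN, GCLC, GCLM, SRXN1, PRDX1 and GSR. They were chosen by name as well-known targets of the transcription factor NRF2 and as parts of the thioredoxin system, and all 9 were among the 9664 genes listed. In at least 1 condition each was detected in more than 30% of cells, the filter that kept 9655 genes for the comparisons. The data are single-cell RNA sequencing of A2780, a human ovarian carcinoma cell line, captured on a microfluidic C1 device and prepared with the full-length Smart-seq2 chemistry. The 338 cells analysed comprised 46 untreated control cells, 56 cells after 16 h and 53 cells after 48 h of 5 nM paclitaxel, a microtubule stabiliser, 63 cells after 2 h and 61 cells after 16 h of 75 µM celecoxib, a cyclooxygenase-2 inhibitor, and 59 cells after 16 h of both drugs at those doses. Spike-in RNAs, added in equal amount to each well, set the scale of every cell.

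NRF2, encoded by NFE2L2, is held at a low level by KEAP1, an adaptor that passes it to a CUL3 ubiquitin ligase. Oxidants and electrophiles modify KEAP1, NRF2 then accumulates and, paired with a small MAF protein, binds antioxidant response elements near its target genes, where BACH1 competes as a repressor. Among these targets NQO1 reduces quinones and HMOX1 breaks down heme. GCLC and GCLM are the catalytic and the modifier subunit of glutamate-cysteine ligase, the rate-limiting enzyme of glutathione synthesis, and GSR reduces oxidised glutathione. TXN is the cytosolic thioredoxin, which TXNRD1 keeps reduced at the expense of NADPH. PRDX1 is a peroxiredoxin that removes hydrogen peroxide and is itself reduced by TXN, and SRXN1 repairs peroxiredoxins that have been over-oxidised.

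No label tells separate cultures of a condition apart, so each condition was taken as 1 sample, no p-value was computed, and the SDs describe the spread between its cells. Treatment and library block of 96 consecutive library numbers cannot be told apart for the control (block 4), 16 h of paclitaxel (block 1), 2 h of celecoxib (block 2) and 16 h of celecoxib (block 3). Cells after 48 h of paclitaxel came from blocks 2 and 4, and cells given both drugs from blocks 1 and 3. The median number of genes detected per cell ran from 6125 to 6630 across the 6 conditions, highest in control cells, and the reads per cell are unknown. Relative to the spike-in RNAs, the median summed transcriptomic abundance was 0.504, 0.643, 0.591 and 0.348 times that of control after 16 h and 48 h of paclitaxel and 2 h and 16 h of celecoxib, and 1.40 times after both drugs. A lower mean over cells can come from fewer cells with the transcript or from less of it per cell, and the share of cells with a value is therefore given for the weakly expressed genes. Of the markers of the line, KRT18 was detected in 23.9% to 36.5% of the cells of a condition and VIM in 62.5% to 86.8%. LYZ, a myeloid gene, had mean E-values of 0.11 to 0.24, which cannot be set beside these shares of cells. PAX8, KRT8, KRT19 and EPCAM, also sought as markers of the line, were not among the genes listed. Neither were PTPRC, COL1A1, DCN, PECAM1 and CD3E, sought as markers of other cell types.

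On GRCh38, with the annotation of GENCODE version 44, NQO1 lies at chr16:69706996-69726668, HMOX1 at chr22:35380361-35394214, TXNRD1 at chr12:104215779-104350307, TXN at chr9:110243810-110256507, GCLC at chr6:53497341-53616970, GCLM at chr1:93885199-93909456, SRXN1 at chr20:646615-653200 and PRDX1 at chr1:45510914-45542732. The libraries do not mark the strand. Reads over TXNRD1 can therefore belong to EID3 or to an antisense transcript, those over SRXN1 to an overlapping coding gene on the same strand, those over PRDX1 to MMACHC on the opposite strand, and those over NQO1 and GCLC to overlapping non-coding transcripts. TXN has 7 annotated pseudogenes and PRDX1 has 1, so the division of reads between copies is uncertain for these genes.

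Promoter windows of 300 bases, 250 before and 50 after an annotated start, were taken from RefSeq on GRCh38.p14, which held 7 windows for 6 of the genes (NQO1, TXNRD1, TXN, GCLC, GCLM and SRXN1). Each was searched on both strands for the antioxidant response element core TGACNNNGC, which reads GCNNNGTCA on the other strand. The core occurred in 4687 of all 35116 windows (13.3%). Among the 9 genes it was found in the window of GCLM, 34 bases before the start, and in both windows of TXNRD1, while these letters are not in the windows of NQO1, TXN, GCLC and SRXN1. The 3 windows with a match are shown, and the levels of the genes are given with every cell scaled to the same total. On that scale GCLM alone of the 9 genes was lower than control by over 1.5-fold after every treatment. TXNRD1 was so after 48 h of paclitaxel only. TXN after 16 h of celecoxib and SRXN1 after 2 h of celecoxib were also past that limit, and their windows hold no match. With the spike-in scaling GCLM and TXNRD1 were lower by over 1.5-fold after each single drug. So were NQO1 and SRXN1, without a match. Having a match therefore did not set apart the genes that differed. Capitals mark the match, and each sequence reads 5′ to 3′ towards the gene.
GCLM, chr1:93909381-93909680, minus strand: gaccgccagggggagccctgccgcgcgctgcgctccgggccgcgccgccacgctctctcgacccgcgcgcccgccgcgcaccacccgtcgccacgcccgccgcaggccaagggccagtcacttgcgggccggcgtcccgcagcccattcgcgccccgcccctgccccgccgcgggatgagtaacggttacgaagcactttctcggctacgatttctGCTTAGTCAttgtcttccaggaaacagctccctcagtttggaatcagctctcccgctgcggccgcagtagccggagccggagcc
TXNRD1, chr12:104215529-104215828, plus strand: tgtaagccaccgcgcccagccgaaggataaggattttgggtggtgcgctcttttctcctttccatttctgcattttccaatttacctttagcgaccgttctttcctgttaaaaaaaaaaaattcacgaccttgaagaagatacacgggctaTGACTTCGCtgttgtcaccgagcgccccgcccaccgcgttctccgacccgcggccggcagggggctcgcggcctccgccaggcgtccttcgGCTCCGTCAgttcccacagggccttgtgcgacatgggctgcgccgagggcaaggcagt
TXNRD1, chr12:104286782-104287081, plus strand: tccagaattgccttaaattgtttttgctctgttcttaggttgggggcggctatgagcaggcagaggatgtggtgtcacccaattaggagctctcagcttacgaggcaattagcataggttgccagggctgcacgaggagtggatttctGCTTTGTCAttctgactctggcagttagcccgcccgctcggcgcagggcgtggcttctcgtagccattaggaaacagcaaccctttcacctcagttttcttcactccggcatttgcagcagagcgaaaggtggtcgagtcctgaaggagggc
In GCLM the match reads GCTTAGTCA (chr1:93909456-93909464). In the upstream TXNRD1 window they read TGACTTCGC, 99 bases before the start, and GCTCCGTCA, 8 bases before it. In the downstream TXNRD1 window the match reads GCTTTGTCA, 102 bases before the start. A match describes the letters of a window, and no binding was measured here.

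The deposited E-value is log2(N/10 + 1), where N is the expression of a gene in transcripts per unit of length and of library, normalised to the spike-in RNAs, so levels of different genes can be set side by side. In control cells the 9 genes fell into a strongly and a weakly expressed set. PRDX1 had the highest mean E-value at 8.94 ± 0.83 (SD over 46 cells), followed by TXN at 7.19 ± 0.82, NQO1 at 6.78 ± 1.53 and TXNRD1 at 4.24 ± 1.17, and each was detected in 46 of 46 control cells. GCLM (2.23 ± 1.23), SRXN1 (2.11 ± 1.39) and GSR (1.80 ± 1.07) lay lower, and GCLC (0.85 ± 1.18) and HMOX1 (0.82 ± 1.17) were at or near 0 in many cells. On the scale of N, the control mean of PRDX1 was 5513 and that of HMOX1 was 15.4. By mean E-value the same order held at the top in cells given both drugs, where PRDX1 was at 9.56 and TXN (7.71) and NQO1 (7.70) were level. By mean N, NQO1 lay above TXN, at 1728 against 1614 in control and 3531 against 2392 after both drugs.

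**Figure D1:**
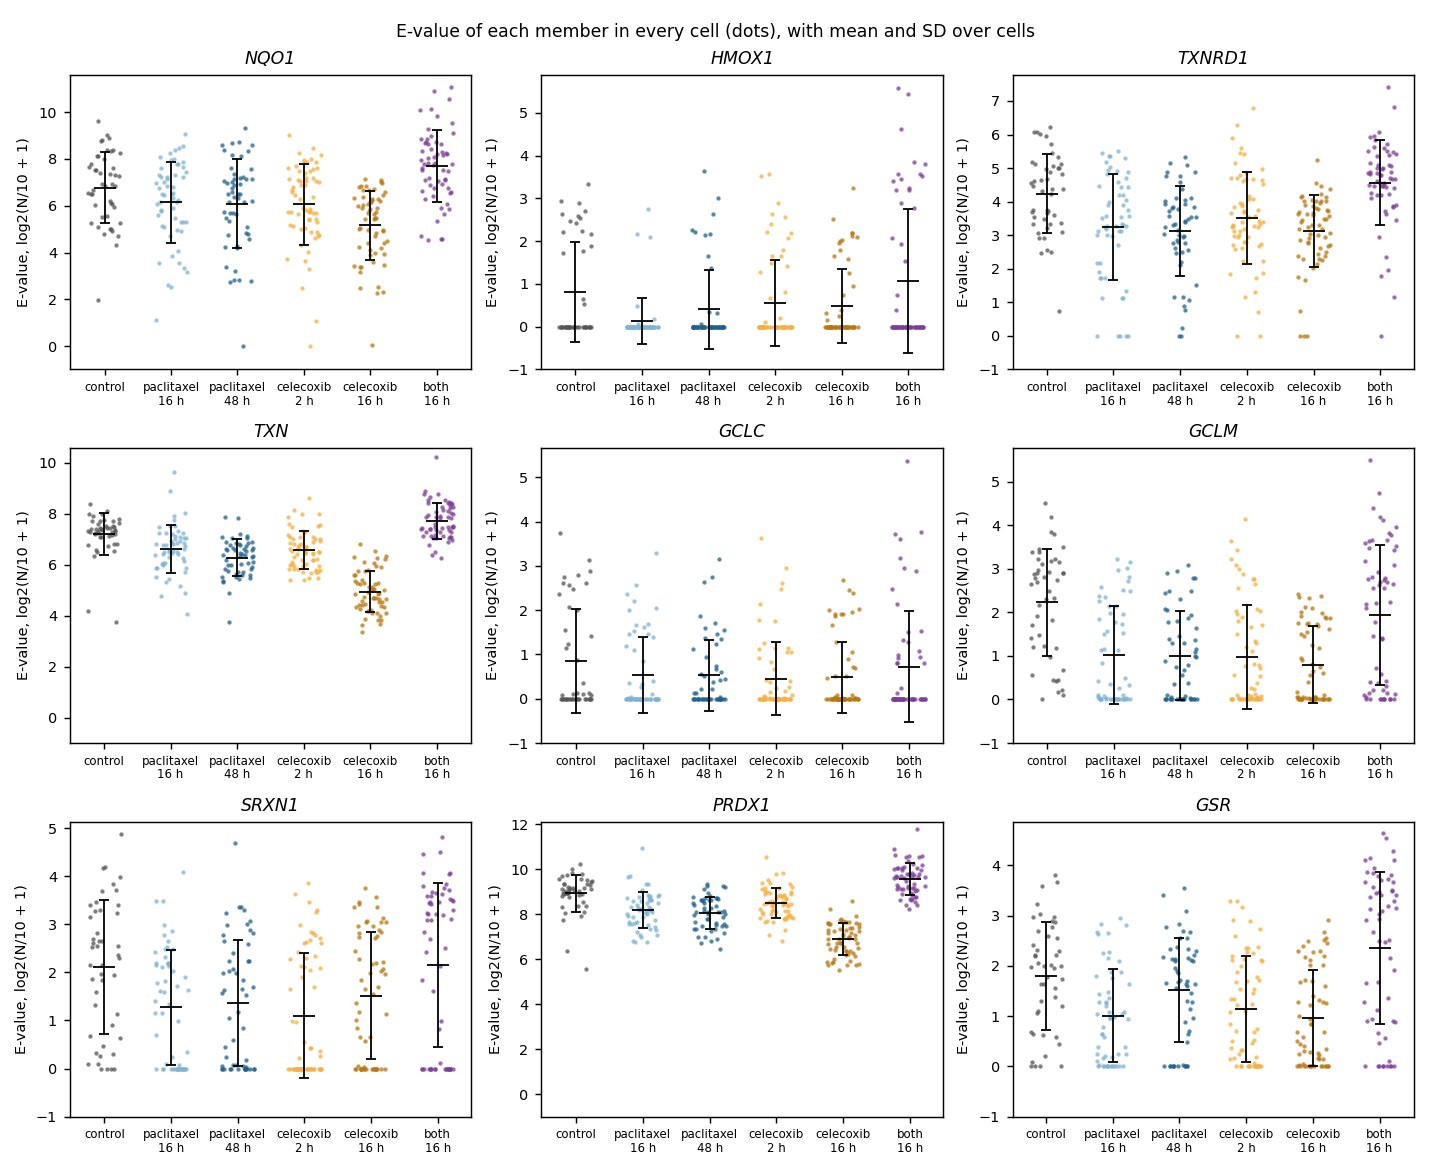
E-value (log2(N/10 + 1), vertical axis) of the 9 genes in every cell (dots) of the 6 conditions (horizontal axis), with the mean (black dash) and the SD over cells (bars). TXN and PRDX1 form a narrow band that is lowest after 16 h of celecoxib (means 4.94 and 6.89), NQO1 spans a wide range in each condition, and many cells are at 0 for HMOX1 and GCLC.

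All 9 genes had lower mean E-values than control after either drug alone, and 7 had higher ones after both together. A gene is called lower or higher when its mean E-value differed by more than log2 of 1.5. After 16 h of paclitaxel 7 of the 9 genes were lower, beside 37.3% of all 9655 genes, and after 48 h 6 were lower, beside 26.6%. After 2 h of celecoxib 6 were lower, beside 25.7%, and after 16 h 7 were lower, beside 43.9%. With both drugs 2 of 9 were higher (NQO1 and PRDX1), beside 30.4% of all genes, and none was lower, beside 1.76%. No gene of the 9 was higher after a single drug, beside 0.0932%, 0.922%, 1.12% and 0.383% of all genes in that order. All 5 comparisons share the same 46 control cells. The median difference of the 9 genes was -0.73, -0.74, -0.66, -1.12 and 0.33 in that order, beside a median over all genes of -0.41, -0.26, -0.26, -0.48 and 0.33.

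Since the summed abundance of the cells differed between conditions, each difference was also computed with every cell scaled to the same total, set to the control median. On that scale 2, 2, 2 and 3 of the 9 genes were lower after 16 h and 48 h of paclitaxel and 2 h and 16 h of celecoxib, beside 13.2%, 8.08%, 10.9% and 10.1% of all genes, and none was higher, beside 1.89%, 4.69%, 4.18% and 8.87%. After both drugs 1 was lower, beside 7.64%, and none of the 9 was higher, beside 7.87%. The median of the 9 genes was then -0.35, -0.29, -0.24, -0.21 and -0.17, and that of all genes lay between -0.09 and 0.02. The genes past the limit at the same total were GCLM in all 5 comparisons, HMOX1 after 16 h of paclitaxel, TXNRD1 after 48 h of paclitaxel, SRXN1 after 2 h of celecoxib, and TXN and PRDX1 after 16 h of celecoxib.

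**Figure D2:**
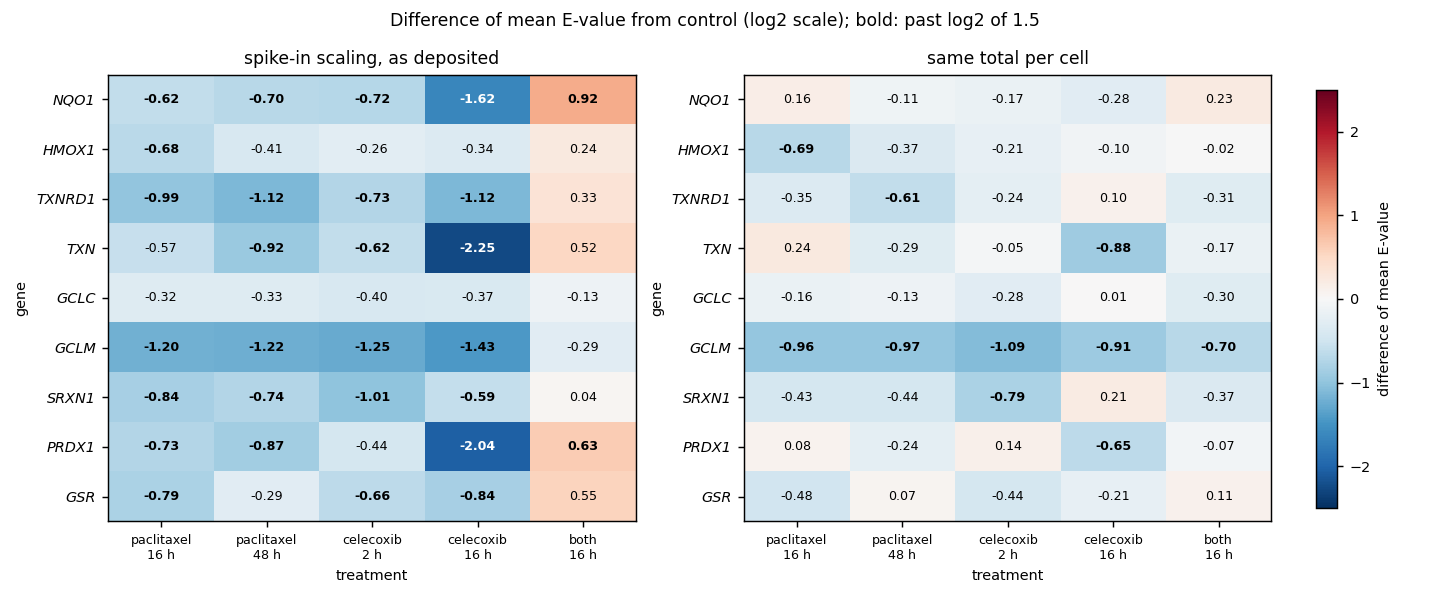
Difference of mean E-value from control (log2 scale, colour and number) for the 9 genes (rows) after the 5 treatments (columns), with the deposited spike-in scaling (left) and with 1 total per cell (right). Bold numbers are past log2 of 1.5. The left panel is below 0 for every gene in the 4 single-drug columns, while on the right GCLM is the row that stays between -0.70 and -1.09.

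GCLM, the modifier subunit of glutamate-cysteine ligase, was lower after each single drug on both scales. The lowest, median and highest E-values were 0, 2.68 and 4.51 in control cells. They were 0, 0.39 and 3.23 after 16 h and 0, 0.79 and 3.09 after 48 h of paclitaxel. After 2 h of celecoxib they were 0, 0.25 and 4.15, after 16 h 0, 0.40 and 2.42, and after both drugs 0, 2.22 and 5.48. The ranges overlapped, but the median control cell exceeded 50 of 56, 48 of 53, 54 of 63 and 61 of 61 single-drug cells, against 35 of 59 cells given both drugs. The mean E-value fell from 2.23 ± 1.23 in control to 1.02 ± 1.13, 1.00 ± 1.02, 0.97 ± 1.20 and 0.80 ± 0.88 after the single drugs, and was 1.93 ± 1.61 after both. The differences of -1.20, -1.22, -1.25 and -1.43 were each about the size of the SD between control cells (0.98, 1.00, 1.02 and 1.16 times).

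Transcripts of GCLM were also found in fewer cells. A value above 0 was present in 45 of 46 control cells (97.8%, exact 95% binomial interval 88.5% to 99.9%), in 38 of 56 (67.9%, 54.0% to 79.7%) and 36 of 53 (67.9%, 53.7% to 80.1%) cells after 16 h and 48 h of paclitaxel, and in 42 of 63 (66.7%, 53.7% to 78.0%) and 42 of 61 (68.9%, 55.7% to 80.1%) cells after 2 h and 16 h of celecoxib. These intervals, which cover counting error only, lay below that of control. After both drugs the share was 49 of 59 (83.1%, 71.0% to 91.6%), and this interval overlapped that of control. The fall of 29.0 to 31.2 percentage points under single drugs compares with a median change of -1.89 to -3.06 points over all genes, and 1.22% to 3.49% of genes lay at or below GCLM. With each cell at the same total the difference was -0.96, -0.97, -1.09, -0.91 and -0.70 in the 5 comparisons, in the lowest 1.48% to 5.11% of genes. Within the library blocks of the cells at 48 h of paclitaxel, the difference on the deposited scale was -1.32 in block 2 and -1.16 in block 4. After both drugs the sign depended on the scale, since the mean of N was 57.8 against 53.6 in control while the mean E-value differed by -0.29.

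GCLC, the catalytic subunit, stayed within the limit by mean E-value in all 5 comparisons on both scales. By linear means it did not: the mean N after 16 h and 48 h of paclitaxel and 2 h and 16 h of celecoxib was 0.492, 0.460, 0.453 and 0.419 times that of control, past 1.5-fold each time, since the E-value compresses low levels. The log2 ratio of mean N with equal totals was -0.33, -0.55, -0.50 and 0.36 after the single drugs, all within the limit, and -0.76 after both. Its mean E-value was 0.85 in control, between 0.46 and 0.54 after the single drugs, and 0.72 after both, with SDs of 0.80 to 1.25. The lowest and the median cell were at or near 0 in every condition, and the highest E-values ran from 2.68 after 16 h of celecoxib to 5.37 after both drugs. The share of cells with GCLC ran from 37.3% after both drugs to 52.2% in control, and all 6 intervals overlapped. One cell given both drugs held 34.0% of the summed N of its condition, and without it the mean N fell from 20.1 to 13.5. The ratio of mean N of GCLM to GCLC was 324% in control and 159% after 16 h of celecoxib, but 17 to 24 cells a condition held both transcripts, and the median log2 ratio within such cells was 1.43 in control and -0.37 after 16 h of celecoxib.

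GSR, which regenerates glutathione, ranged from 0 to 3.81 with a median E-value of 1.99 in control cells. Its mean E-value was 1.80 ± 1.07 in control, 1.01 ± 0.93 after 16 h and 1.52 ± 1.04 after 48 h of paclitaxel, 1.14 ± 1.05 after 2 h and 0.97 ± 0.95 after 16 h of celecoxib, and 2.36 ± 1.52 after both drugs. It was past the limit in 3 comparisons, all lower, and in none at the same total, where the differences ran from -0.48 to 0.11. With both drugs 10 of 59 cells exceeded the highest control cell.

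**Figure D3:**
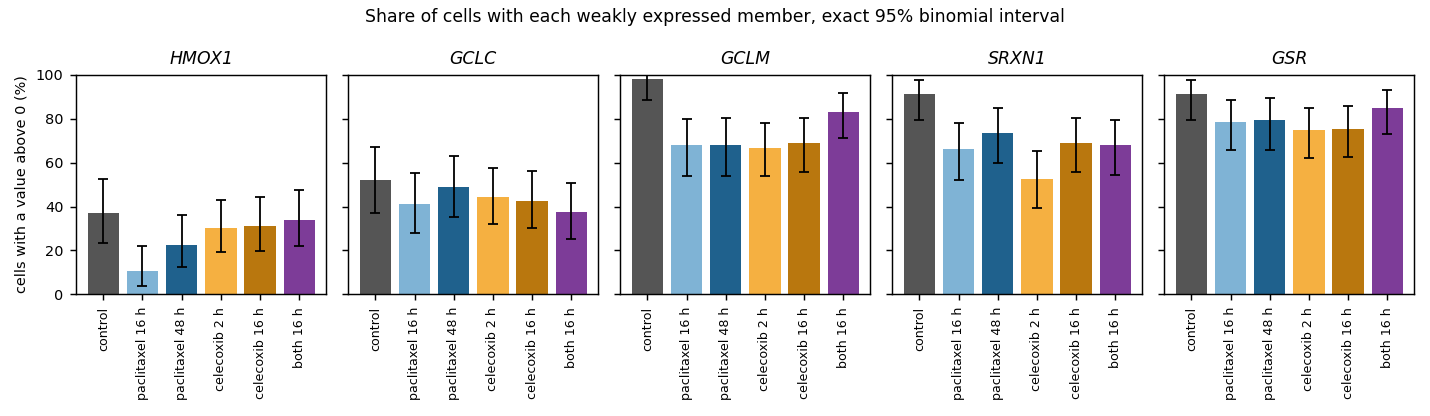
Share of cells with a value above 0 (%, vertical axis) for the 5 weakly expressed genes in the 6 conditions (bars), with the exact 95% binomial interval (lines). GCLM falls from 97.8% in control to 66.7% to 68.9% after single drugs, HMOX1 is lowest after 16 h of paclitaxel (10.7%), and SRXN1 is lowest after 2 h of celecoxib (52.4%).

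In mean E-value on the deposited scale, the largest differences from control among the 9 genes were those of TXN and PRDX1 after 16 h of celecoxib. With equal totals GCLM differed more (-0.91 against -0.88 and -0.65 in that condition), and by linear means HMOX1 after 16 h of paclitaxel (0.152 times control) and GCLM after 16 h of celecoxib (0.206 times) were lower. For TXN, thioredoxin, the lowest, median and highest E-values were 3.76, 7.34 and 8.38 in control cells and 3.36, 4.85 and 6.83 after 16 h of celecoxib. Each of the 61 treated cells fell short of the control median. The medians were 6.66 and 6.36 after 16 h and 48 h of paclitaxel, 6.48 after 2 h of celecoxib and 7.50 after both drugs, so the cells at 16 h of celecoxib stood apart from those of the other conditions. The mean fell from 7.19 ± 0.82 to 4.94 ± 0.81, a difference of -2.25 or 2.75 control SDs, with a ratio of mean N of 0.217. With totals made equal the difference was -0.88, and 57 of 61 cells were under the median of control.

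PRDX1, the peroxiredoxin that TXN reduces, followed the same pattern. Its lowest, median and highest E-values were 5.58, 9.08 and 10.2 in control and 5.52, 6.94 and 8.60 after 16 h of celecoxib, and again 61 of 61 cells were under the median of control. The mean changed from 8.94 ± 0.83 to 6.89 ± 0.71, a difference of -2.04, with a ratio of mean N of 0.240. With totals made equal it was -0.65, with 56 of 61 cells under that median. Over all genes 1.26% lay at or below TXN and 2.35% at or below PRDX1 as deposited, and 4.42% and 8.43% with equal totals.

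When the 6 conditions were ordered by mean E-value on the deposited scale, TXN and PRDX1 were also the genes in which 2 neighbours in the order differed by more than the larger of their SDs. This held for 48 h of paclitaxel against 16 h of celecoxib, with gaps of 1.33 for TXN and 1.17 for PRDX1. No other neighbouring pair, in any of the 9 genes, differed by more than the spread between cells, and at the same total none did. Both transcripts scaled with the summed abundance of a cell: the correlation with log2 of the total, centred within conditions, was 0.80 for TXN and 0.77 for PRDX1 over 338 cells, and 0.14 to 0.44 for the other 7 genes. The total contains the genes themselves and the cells of a condition are 1 sample, so these values are descriptions.

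Between 2 h and 16 h of celecoxib, NQO1, TXN and PRDX1 were lower by 0.91, 1.63 and 1.60 in mean E-value, 3 of 9 genes beside 19.4% of all genes, and none was higher, beside 0.528%. At the same total TXN (-0.83) and PRDX1 (-0.79) remained past the limit, beside 4.90% of all genes, and SRXN1 was higher by 1.00, beside 9.95%. Between 16 h and 48 h of paclitaxel none of the 9 genes was past the limit on either scale, beside 7.89% of all genes higher and 0.352% lower on the deposited scale and 8.75% and 1.81% when totals were equal.

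TXNRD1, the reductase of TXN, fell less than its substrate after 16 h of celecoxib. Its lowest, median and highest E-values were 0.74, 4.38 and 6.22 in control, 0, 3.30 and 5.24 after 16 h of celecoxib, and 0, 4.71 and 7.42 after both drugs. The mean E-value was 4.24 ± 1.17 in control, 3.24 ± 1.57 and 3.12 ± 1.34 after 16 h and 48 h of paclitaxel, 3.51 ± 1.37 and 3.12 ± 1.08 after 2 h and 16 h of celecoxib, and 4.57 ± 1.25 after both drugs. All 4 single-drug values were past the limit, but at the same total only that at 48 h of paclitaxel was (-0.61), and after 16 h of celecoxib the sign turned (0.10). The mean N of TXNRD1 was 14.9% that of TXN in control cells, 11.3% to 15.1% in the other conditions without 16 h of celecoxib, and 27.9% after 16 h of celecoxib. Within single cells, where the spike-in scaling cancels, the median log2 ratio of TXNRD1 to TXN was -3.03 ± 1.37 (SD over 46 cells) in control and -1.73 ± 1.12 (58 cells with both) after 16 h of celecoxib.

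SRXN1, which restores over-oxidised peroxiredoxins, ranged from 0 to 4.89 with a median of 2.34 in control cells. Its mean E-value was 2.11 ± 1.39 in control, 1.27 ± 1.19 and 1.37 ± 1.31 after 16 h and 48 h of paclitaxel, 1.10 ± 1.3 and 1.52 ± 1.32 after 2 h and 16 h of celecoxib, and 2.15 ± 1.70 after both drugs. The share of cells with SRXN1 fell from 91.3% (79.2% to 97.6%) in control to 52.4% (39.4% to 65.1%) after 2 h of celecoxib, a change that 0.16% of genes equalled or passed, and it was 66.1% to 73.6% in the other 4 conditions. The difference at 2 h of celecoxib was -1.01 as deposited and -0.79 with equal totals. The mean N of SRXN1 was 1.00% that of PRDX1 in control, 0.568% after 2 h and 2.42% after 16 h of celecoxib, and 0.689% to 0.982% in the other 3 conditions. Within cells that held both transcripts, the median log2 ratio of SRXN1 to PRDX1 was -7.02 ± 2.17 (SD over 42 cells) in control, -6.80 ± 1.80 (33 cells) after 2 h and -5.09 ± 2.16 (42 cells) after 16 h of celecoxib. The lower ratio at 2 h was not seen within such cells. This ratio leaves out the cells without SRXN1, 30 of 63 at 2 h of celecoxib and 4 of 46 in control. It therefore cannot show a fall that comes from fewer cells with the transcript.

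NQO1, the quinone reductase, varied widely between the cells of each condition. Its lowest, median and highest E-values were 1.99, 6.88 and 9.61 in control, 1.13, 6.48 and 9.07 after 16 h of paclitaxel and 0, 6.49 and 9.35 after 48 h. They were 0, 6.29 and 9.02 after 2 h of celecoxib, 0.04, 5.48 and 7.13 after 16 h, and 4.55, 7.78 and 11.1 after both drugs. The ranges overlapped throughout, although 57 of 61 cells after 16 h of celecoxib lay below and 43 of 59 cells given both drugs lay above the control median. The mean differed from control (6.78 ± 1.53) by -0.62, -0.70, -0.72, -1.62 and 0.92, and at the same total by 0.16, -0.11, -0.17, -0.28 and 0.23, all within the limit. Among genes of like mean, the log10 of SD over mean of NQO1 stood 2.69 to 3.63 SDs above its average in each of the 6 conditions, past the 2 SDs that mark a high-variance gene here. Genes with a mean E-value up to 1 were not scored, which left out GCLC throughout, HMOX1 except after both drugs, GCLM under celecoxib alone and GSR after 16 h of celecoxib, and no other gene of the 9 passed that mark where it was scored. With totals made equal, the gap between the 10th and the 90th percentile was 3.45 to 4.21 E-value units in the 6 conditions. That of SRXN1, where many cells are at 0, was 3.35 to 4.78, wider than that of NQO1 after 48 h of paclitaxel (3.75 against 3.59) and 16 h of celecoxib (4.78 against 3.72).

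The spread of NQO1 was shared with other genes. By Pearson correlation over the 338 cells, at the same total and centred within conditions, the genes most like NQO1 were GPM6A (0.68), ANXA1 (0.66) and MAP2K6 (0.66), each positive in 6 of 6 conditions. GPM6A encodes a membrane glycoprotein, ANXA1 the phospholipid-binding annexin A1, and MAP2K6 a kinase that activates p38. PRDX1 went the other way: its correlation with NQO1 was -0.33 (-0.70 in control, -0.16 after 16 h of celecoxib, below 0 in all 6 conditions). The genes most like PRDX1 were SUN3 (0.47), DTNA (0.45) and PRAME (0.41), and these had correlations with NQO1 of -0.60, -0.63 and -0.66. PRAME encodes a cancer-testis antigen. GPM6A and PRAME had a correlation of -0.79 with each other, so the cells high in NQO1 tended to hold GPM6A and to lack PRAME, in control and in treated cells alike.

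**Figure D4:**
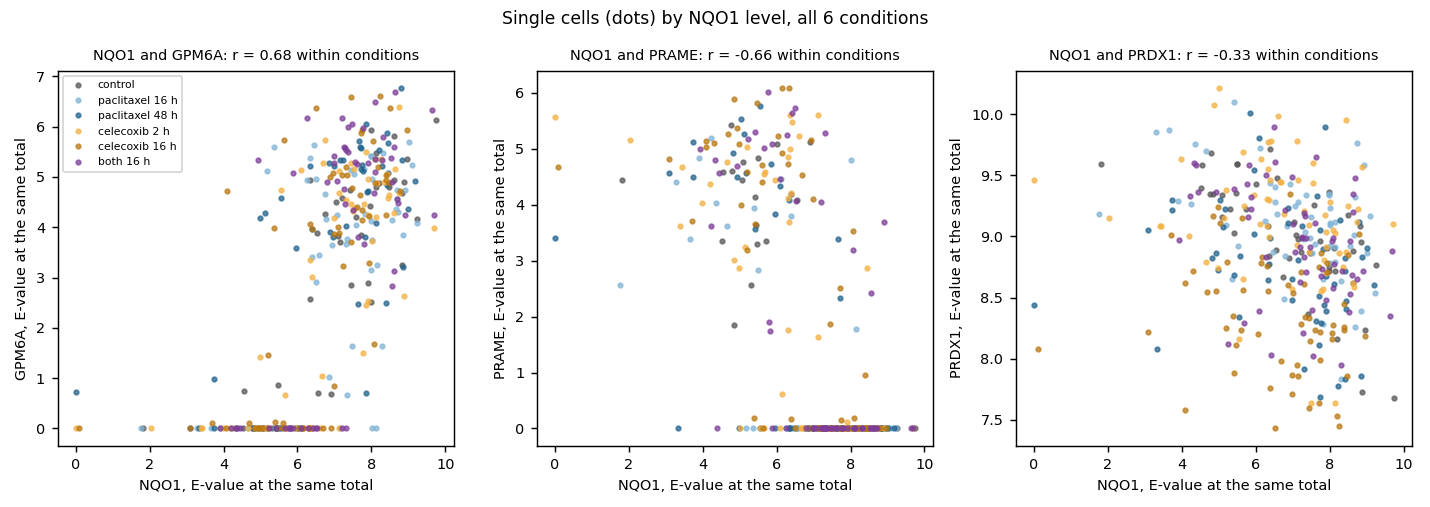
Single cells (dots, coloured by condition) by NQO1 (horizontal axis, E-value at the same total per cell) against GPM6A, PRAME and PRDX1 (vertical axes, same unit). Cells with GPM6A sit at high NQO1 and cells with PRAME at lower NQO1 in all conditions (r = 0.68 and -0.66), and PRDX1 declines with NQO1 more weakly (r = -0.33).

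The 9 genes had little else in common from cell to cell. With totals made equal the 36 pairs had a median correlation of 0.02, with 21 above 0, from -0.33 for NQO1 and PRDX1 to 0.21 for TXN and PRDX1. On the deposited scale all 36 were above 0, with a median of 0.16 and a highest value of 0.69 for TXN and PRDX1, a scale on which genes share the total of the cell. Among the genes most like TXN, RPS21 (0.49) and RPL35 (0.45) encode ribosomal proteins. For the other 6 genes no correlation exceeded 0.26 (GSR with UCK2), a weak relation. Values were sparse for HMOX1 and GCLC, but TXNRD1, also among the 6, was detected in 91.1% to 100% of the cells of a condition.

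HMOX1, heme oxygenase, was found in a minority of cells of every condition, so the median cell was at 0 throughout. It was detected in 17 of 46 control cells (37.0%, 23.2% to 52.5%), in 6 of 56 (10.7%, 4.03% to 21.9%) and 12 of 53 (22.6%, 12.3% to 36.2%) cells after 16 h and 48 h of paclitaxel, in 19 of 63 (30.2%, 19.2% to 43.0%) and 19 of 61 (31.1%, 19.9% to 44.3%) cells after 2 h and 16 h of celecoxib, and in 20 of 59 (33.9%, 22.1% to 47.4%) after both. The interval at 16 h of paclitaxel lay below that of control, and the other 4 overlapped it. The mean E-value after 16 h of paclitaxel was 0.14 ± 0.54 against 0.82 ± 1.17, a difference of -0.68 as deposited and -0.69 with equal totals. With both drugs the cells that held HMOX1 reached higher levels on the deposited scale: the highest E-value was 5.59 against 3.35 in control, and 10 of 59 cells exceeded the highest control cell. With equal totals the gap was smaller, with a highest value of 5.01 against 4.62 and a mean N of 24.3 against 19.2. As deposited, the mean N rose from 15.4 to 40.2, or 32.7 without the top cell, which held 19.9% of the sum. The mean E-value differed by 0.24 as deposited and by -0.02 with equal totals.

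Both drugs together gave higher values than either alone at the same 16 h. Against 16 h of paclitaxel 8 of 9 genes were higher, beside 62.5% of all genes, and against 16 h of celecoxib 7 were, beside 66.0%. None of the 9 was lower in either comparison, beside 0.0311% and 0.0414%. With totals made equal 2 were higher than with paclitaxel (HMOX1 by 0.67 and GSR by 0.59), beside 13.0% of all genes, and 1 was higher than with celecoxib (TXN by 0.71), beside 6.94%, while none was lower than with either drug, beside 2.11% and 5.85%. On the deposited scale TXN and PRDX1 differed from 16 h of celecoxib by 2.77 and 2.67. The mean at 16 h of celecoxib was lower than without it in the absence of paclitaxel and higher in its presence, each past the limit, for 7 of 9 genes beside 37.6% of all genes, and for paclitaxel without and with celecoxib in 6 of 9 beside 33.8% (either drug 7 of 9 beside 43.0%). With equal totals no gene of the 9 did so, beside 0.984%, 1.18% and 1.64%. Within cells given both drugs, library blocks 1 and 3 gave differences from control of 0.91 and 0.94 for NQO1 and 0.68 and 0.55 for PRDX1, the latter within the limit.

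Regulators of NRF2 did not all move with its targets. NFE2L2, which encodes NRF2 itself, had a mean E-value of 3.32 in control and differed by -0.58, -0.27, -0.39, -0.63 and 0.80 after 16 h and 48 h of paclitaxel, 2 h and 16 h of celecoxib and both drugs, and at the same total by 0.09, 0.24, 0.05, 0.57 and 0.17. KEAP1 (2.65 in control) differed by -0.96, -0.56, -0.94, -0.07 and 0.77, and at the same total by -0.54, -0.16, -0.61, 1.03 and 0.26. SQSTM1, an autophagy receptor that sequesters KEAP1, had the largest fall of the list after each single drug, by 1.51, 0.90, 1.24 and 1.80. Of the 9 measured regulators of 10 listed, 4, 1, 2 and 4 were lower after the single drugs, beside the 37.3%, 26.6%, 25.7% and 43.9% of all genes, and 5 were higher after both, beside 30.4%, CUL3 most (0.81). With equal totals 1, 0, 2 and 2 were lower, beside 13.2%, 8.08%, 10.9% and 10.1% of all genes. Higher were 1 and 2 after 2 h and 16 h of celecoxib, beside 4.18% and 8.87%. None was past the limit after both drugs, beside 7.87% higher and 7.64% lower.

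Of the other NRF2 targets, 15 of 21 were measured, and 7, 7, 3 and 9 of them were lower after the single drugs while 8 were higher after both, beside the same shares of all genes. With equal totals 0, 2, 1 and 1 were lower, beside 13.2%, 8.08%, 10.9% and 10.1% of all genes. Higher were 1 after 16 h of paclitaxel, 1 after 2 h of celecoxib and 1 after both drugs, beside 1.89%, 4.18% and 7.87%. BLVRB, a biliverdin reductase, had the largest rise after both drugs (1.40). The ferritin chains FTL and FTH1 were among the highest values seen, with mean E-values of 10.4 and 9.81 in control, and differed after 16 h of celecoxib by -1.07 and -0.94 and after both drugs by 1.00 and 1.13. Both were within the limit in all 5 comparisons once totals were equal. PIR, an iron-binding nuclear protein, had the largest fall, by 2.85 after 16 h of celecoxib and by 1.98 at the same total.

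TXNIP, the protein that binds and inhibits thioredoxin, had the largest rise of the thioredoxin list after each of the 5 treatments. Its mean E-value was 0.59 in control and 0.84, 1.95, 1.87, 2.30 and 2.14 after the 5 treatments, differences of 0.25, 1.35, 1.28, 1.70 and 1.54. It was detected in 32.6% of control cells and in 50.0%, 71.7%, 76.2%, 88.5% and 62.7% of treated cells. Its difference with equal totals reached 2.71 after 16 h of celecoxib, where that of TXN was -0.88. In the same list TXNL1, a thioredoxin-like protein, fell by 1.53, 1.47, 1.22 and 2.49 after the single drugs. Of the 5 other peroxiredoxins 5, 3, 3 and 5 were lower after the single drugs, beside 37.3%, 26.6%, 25.7% and 43.9% of all genes. With both drugs 4 were higher, beside 30.4%. At the same total 1 of them, PRDX4 after 2 h of celecoxib (-0.61), was past the limit, beside 10.9% of all genes lower then.

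Genes that import cystine for glutathione synthesis rose under celecoxib while GCLM was lower. SLC7A11, the cystine transporter, had a mean E-value of 0.18 in control and differed by 0.20 and 0.35 after 16 h and 48 h of paclitaxel, by 1.13 and 1.02 after 2 h and 16 h of celecoxib, and by 1.15 after both drugs. It was detected in 26.1% of control cells and in 85.7% and 95.1% of cells after 2 h and 16 h of celecoxib. SLC3A2, its heavy chain, had a mean E-value of 3.69 in control, 4.47 after 2 h and 4.49 after 16 h of celecoxib. The largest rise of the glutathione list after each of the 5 treatments was not that of an importer but that of CHAC1. It differed by 0.22 and 0.80 after 16 h and 48 h of paclitaxel, by 1.94 and 1.39 after 2 h and 16 h of celecoxib, and by 1.99 after both drugs. GSTO1, a glutathione transferase, fell by 2.47 after 16 h of celecoxib, and GSTM3, another, rose by 1.88 after both drugs. Of the 17 measured genes of glutathione synthesis and use, 10, 6, 6 and 12 were lower after the single drugs, beside 37.3%, 26.6%, 25.7% and 43.9% of all genes, and 9 were higher after both, beside 30.4%. Higher were also 1 after 48 h of paclitaxel, 4 after 2 h and 3 after 16 h of celecoxib, beside 0.922%, 1.12% and 0.383%. With equal totals 3, 2, 1 and 6 were lower after the single drugs, beside 13.2%, 8.08%, 10.9% and 10.1% of all genes. On that scale 2, 2, 4 and 5 were higher, beside 1.89%, 4.69%, 4.18% and 8.87%. After both drugs 5 were higher and 2 lower, beside 7.87% and 7.64%.

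On the deposited scale most genes that supply NADPH or remove superoxide and hydrogen peroxide were below control after the single drugs and above it after both. IDH1, a cytosolic source of NADPH, was level after 16 h of celecoxib as deposited (0.01) and differed by 1.37 with equal totals, and it rose by 1.70 after both drugs. TALDO1, a pentose phosphate enzyme, fell by 1.96 after 16 h of celecoxib. SOD2, the mitochondrial superoxide dismutase, fell by 0.98, 1.31, 1.49 and 2.40 after the single drugs, the largest fall of its list each time, and differed by 0.33 after both. CAT, catalase, differed by -0.14, -0.10, -0.14 and -0.61 after the single drugs and rose by 1.35 after both. Of the 8 NADPH genes 6, 4, 2 and 6 were lower after the single drugs, beside 37.3%, 26.6%, 25.7% and 43.9% of all genes, and 5 were higher after both, beside 30.4%. With equal totals 2, 0, 2 and 3 were lower after the single drugs, beside 13.2%, 8.08%, 10.9% and 10.1% of all genes. After 16 h of celecoxib 1 was higher, beside 8.87%, and none was after the other single drugs. After both drugs 1 was higher and 1 lower, beside 7.87% and 7.64%. Of the 4 genes of the superoxide list 3, 2, 3 and 4 were lower after the single drugs, beside 37.3%, 26.6%, 25.7% and 43.9%, and 2 were higher after both, beside 30.4%. With equal totals 0, 1, 1 and 2 were lower, beside 13.2%, 8.08%, 10.9% and 10.1%. Higher were 1 after 48 h of paclitaxel and 1 after both drugs, beside 4.69% and 7.87%. The gene lists were chosen with earlier results of these data known, so their counts are descriptions beside those of all genes.

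**Figure D5:**
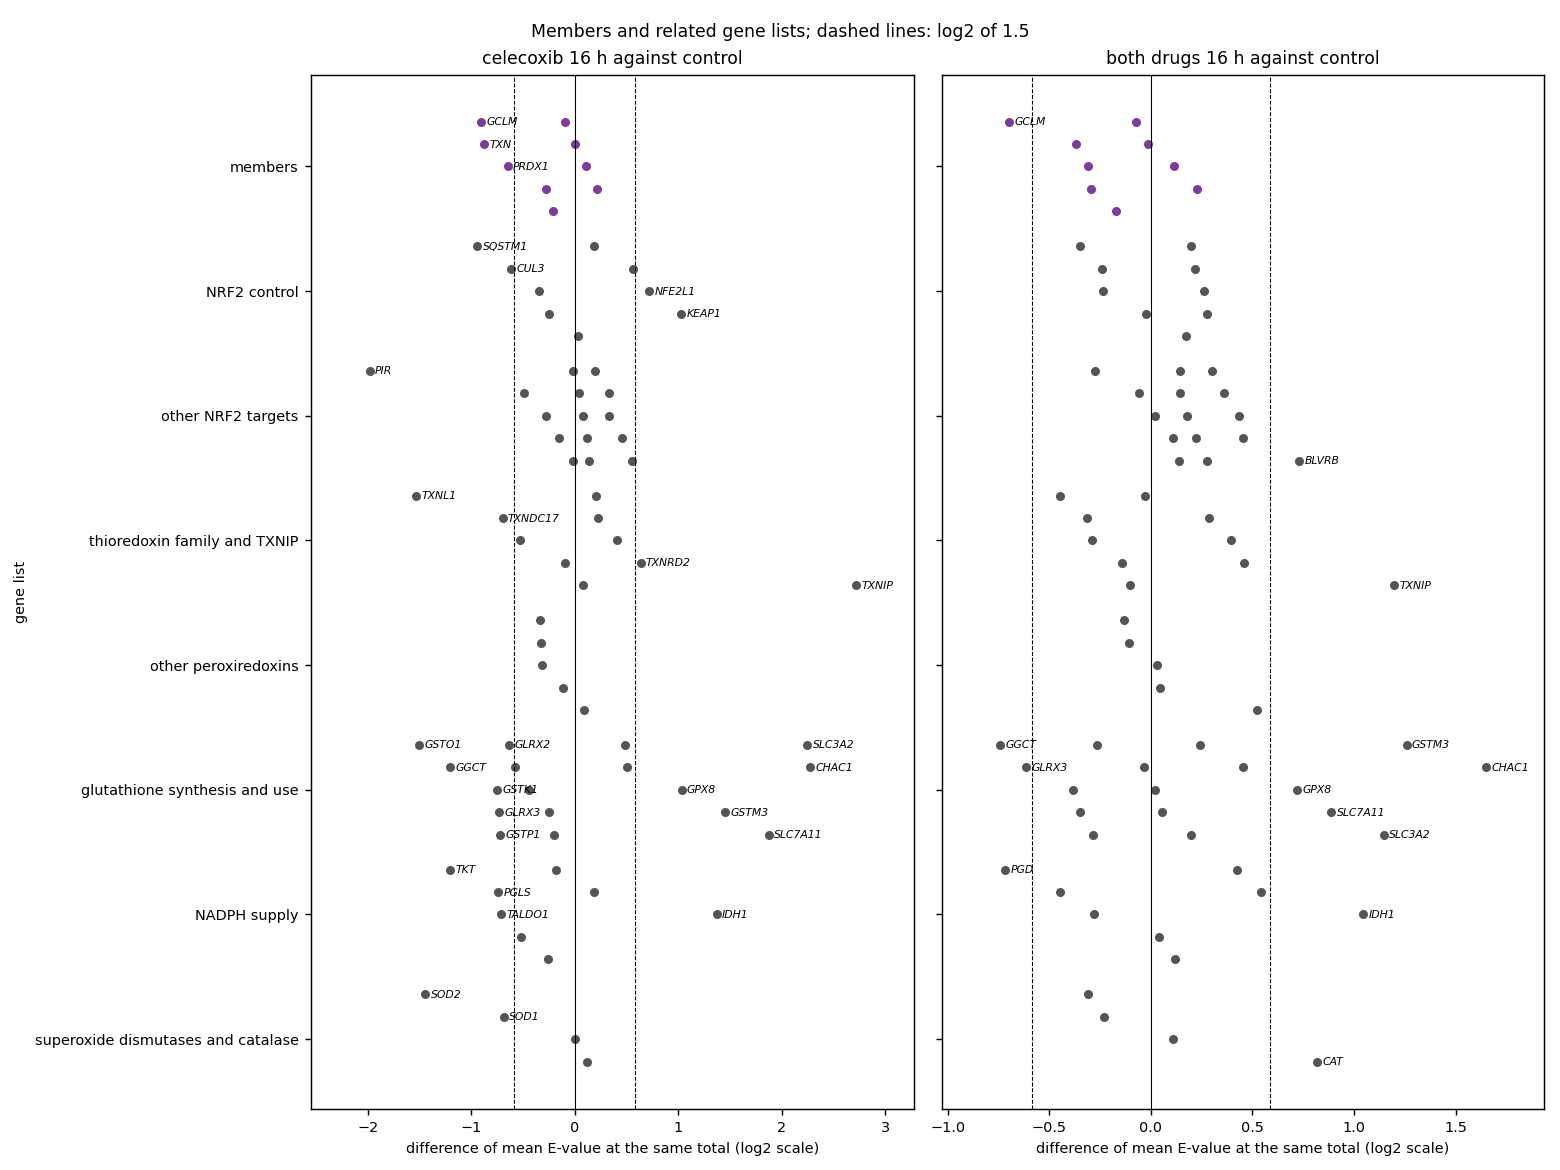
Difference of mean E-value from control at the same total per cell (log2 scale, horizontal axis) for the 9 members and 7 related gene lists (vertical axis, 1 dot per gene), after 16 h of celecoxib (left) and both drugs (right). Dashed lines mark log2 of 1.5 and genes past them are named. TXNIP, SLC7A11, SLC3A2, CHAC1, GPX8, GSTM3 and IDH1 lie past the right line in both panels. GCLM, GGCT and GLRX3 lie past the left line in both.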

How the data were processed

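The authors trimmed the Smart-seq2 reads with Trim Galore, ran RSEM 1.3.0 through Bowtie2 to get TPM over hg38, GENCODE version 28 and 3 spike-in RNAs, divided by the most abundant spike-in RNA, and deposited log2(N/10 + 1) values, to 3 decimals, for 338 of the 372 cells in the labels. From these log2 values, per the labels, cells were grouped by treatment and time. Since no label names replicate cultures, each condition was 1 sample and no test was made. A difference of mean E-values over log2 of 1.5 was counted, among the 9655 genes detected, in at least 1 condition, in more than 30% of cells, and set beside the same count over all genes. Cells were also scaled to 1 total (the control median). Depth is known only as genes detected, and exact binomial intervals cover counting error alone. High variance meant log10 of SD over mean more than 2 SDs above its average in 100 bins of mean E-value (genes with means above 1). Scripts were tested on simulated data (scipy 1.17.1 and pandas 2.3.3 under Python 3.11.15). The 9 genes and the lists were chosen with earlier results of these data known. Named beside them were NFE2L2, KEAP1, TXNIP, SLC7A11, FTL and FTH1, the largest rise and fall of each list among genes in at least 30% of cells, and the 3 most correlated genes of NQO1, TXN and PRDX1, of which 1 is not reported here. The rule covered all 9 genes, but for the other 6, with weak correlations, the highest alone is given. CHAC1 was named outside these rules, after its values were seen. Alternatives were another scaling, pseudocount, limit, filter, summary and set of cells.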

Additional observations from a re-analysis of the deposited data

Results flagged for a closer look

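For 7 of the 9 genes the difference made by a drug on the deposited scale was below 0 without the other drug and above 0 with it, both past log2 of 1.5. The same held for 43.0% of all genes, with 7 of 9 and 37.6% for celecoxib and 6 of 9 and 33.8% for paclitaxel. With 1 sample per condition the difference between the 2 differences was not tested. For NQO1, 16 h of celecoxib changed the mean E-value by -1.62 without and by 1.55 with paclitaxel, which differ by 3.17, and 16 h of paclitaxel changed it by -0.62 without and by 2.54 with celecoxib, which differ by the same 3.17. For PRDX1 celecoxib gave -2.04 and 1.36, paclitaxel -0.73 and 2.67, and both pairs differ by 3.41. For TXN celecoxib gave -2.25 and 1.10, which differ by 3.35, and the paclitaxel pair was within the limit on 1 side. The pairs of TXNRD1 (-1.12 and 1.33 for celecoxib) differ by 2.44, those of GCLM (-1.43 and 0.91) by 2.34, those of GSR (-0.84 and 1.35) by 2.19 and those of SRXN1 (-0.59 and 0.88) by 1.47.

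At the same total per cell none of the 9 genes had such a pair, beside 0.984% (celecoxib), 1.18% (paclitaxel) and 1.64% (either) of all genes. The celecoxib pair was -0.28 and 0.06 for NQO1, -0.65 and -0.15 for PRDX1, -0.88 and -0.41 for TXN, 0.10 and 0.04 for TXNRD1, -0.91 and 0.26 for GCLM, -0.21 and 0.59 for GSR, and 0.21 and 0.06 for SRXN1. The median summed abundance moved with these pairs, at 0.504 and 0.348 times control after 16 h of paclitaxel and of celecoxib and 1.40 times after both.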

How the results depend on the processing

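No paired analysis was possible because each condition was 1 sample with no replicate number, and leaving out a replicate was not run for the same reason. Among the 46 of 81 differences past the limit, the sign turned in 9 with equal totals, in 1 when centred on the median gene, in 13 with linear ratios at equal totals and in 0 under the other settings. Differences within the limit turned in a further 16, 12 and 14 cases under these settings. For a 2-fold limit and a stricter or absent detection filter the 0 was fixed in advance, since they leave each difference unchanged. The cause of a change was not tested unless the setting itself lowers the count, as a 2-fold limit does. Counts under the settings below are of the 9 genes alone, without the share of all genes beside them. They show how a count depends on the setting and cannot set these genes apart from all genes.

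With every cell at the same total, the counts of lower genes became 2 (16 h and 48 h of paclitaxel, 2 h of celecoxib) and 3 (16 h of celecoxib), and after both drugs 0 were higher and 1 lower. Against 16 h of paclitaxel both drugs then had 2 higher with a median of 0.061, against 16 h of celecoxib 1 higher with a median of 0.21, and from 2 h to 16 h of celecoxib 1 was higher. Of the differences past the limit, those that turned were after 16 h of paclitaxel NQO1 (0.16) and PRDX1 (0.080), after 16 h of celecoxib TXNRD1 (0.10) and SRXN1 (0.21), and after both drugs PRDX1 (-0.071 against control), TXN and PRDX1 (-0.41 and -0.15 against paclitaxel) and TXNRD1 and SRXN1 (-0.41 and -0.58 against celecoxib).

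Centred on the median gene, 1 was lower after 16 h of paclitaxel and 2 after 2 h of celecoxib. Both drugs had 1 higher and 1 lower against control, 1 higher and 1 lower against paclitaxel, and 3 higher and 1 lower with a median of 0.51 against celecoxib, where SRXN1 turned to -0.25, and 1 was higher from 2 h to 16 h of celecoxib.

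At the same total, with ratios of linear means (chosen after seeing the data), 2, 2, 2 and 3 were lower and 1 was higher after 16 h of celecoxib, whose median became 0.056. Both drugs had 0 higher and 2 lower against control, 2 higher with a median of -0.11 against paclitaxel, and 1 higher and 2 lower with a median of 0.14 against celecoxib. Over time 2 were higher for paclitaxel and 2 for celecoxib. Of the differences past the limit, signs turned for NQO1 and PRDX1 after 16 h of paclitaxel (0.063 and 0.078), for TXNRD1, SRXN1 and GSR after 16 h of celecoxib (0.17, 0.79 and 0.18), and after both drugs for PRDX1 against control (-0.066), for NQO1, TXNRD1, TXN, SRXN1 and PRDX1 against paclitaxel (-0.021, -0.29, -0.44, -0.11 and -0.14) and for TXNRD1 and SRXN1 against celecoxib (-0.47 and -1.30).

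With linear means on the deposited scale 4 were higher after both drugs, the median against celecoxib was 2.39, 2 were higher over time for paclitaxel and 5 were lower over time for celecoxib, and without the highest cell (chosen after seeing the data) these were 4, 2.28, 2 and 5. A 2-fold limit left 1, 2 and 2 lower after paclitaxel 16 h, 48 h and celecoxib 2 h, 0 higher after both drugs and 5 against paclitaxel. A pseudocount of 1 gave 1 lower after both drugs, 2 higher over time for paclitaxel and 1 for celecoxib, and medians over cells gave 1 and 1 over time. Library block 1 gave 4 higher after both drugs and block 3 gave 1. In cells with both transcripts the median log2 ratio of GCLM to GCLC was -0.54 (paclitaxel, 48 h) and -0.37 (celecoxib, 16 h), against 1.08 and 0.67 from means, and that of HMOX1 to NQO1 was -6.43 (paclitaxel, 16 h), against -9.0. The median correlation of pairs was 0.16 on the deposited scale, against 0.02. Stricter or absent detection filters leave each mean unchanged and alter only which genes are counted. Most wells noted as empty or with debris were already absent from the cells analysed. These settings kept every count within 1.5 times, but they could hardly do otherwise.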
